A study of Mus musculus with 9 samples.

Results

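PPARG, its partner receptor RXRA and 5 further transcription factors of alveolar macrophages (BHLHE40, BHLHE41, C/EBPα, C/EBPβ and PU.1) were followed in 3 kinds of cultured mouse macrophages. The genes Pparg, Rxra, Bhlhe40, Bhlhe41, Cebpa, Cebpb and Spi1 were taken by their symbols from a table of 46078 genes, and all 7 were found once. They reached the minimum of 1 FPKM in every one of the 9 libraries, so none entered through 1 group alone, and they stand among 11952 genes tested. FPKM, fragments per kilobase of transcript in relation to library size, is a level per length, so levels of different genes can be set side by side.

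The cultures came from C57BL/6J mice, an inbred laboratory strain, and all had been kept for at least 8 weeks. FLM_G were fetal liver macrophages from gestational day 15 to 19, grown in 10% fetal bovine serum with 30 ng/ml of recombinant mouse GM-CSF, the granulocyte-macrophage colony-stimulating factor. FLM_M came from fetal liver of the same days and grew with 30% L-cell supernatant, which carries M-CSF (macrophage colony-stimulating factor), and 20% serum. BMM were macrophages from bone marrow, whose medium the labels do not describe. Each kind was plated in triplicate at 250000 cells per well 1 day before its RNA was taken, which gives 3 libraries a group. The labels do not say whether the wells of a kind had separate cultures or animals as their source, and the p-values then reflect only how these wells varied. FLM_G and FLM_M differ in serum as well as in growth factor, and FLM_G and BMM also in tissue of origin, and these cannot be told apart. In RNA from whole wells, fewer cells of a kind and less RNA per cell cannot be told apart either.

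Alveolar macrophages live in the air spaces of the lung, where they clear surfactant lipid and inhaled particles. GM-CSF from the lung epithelium, together with TGF-β, switches on Pparg in their fetal precursors, and PPARG, a nuclear receptor that binds DNA as a pair with RXRA and responds to fatty acids, drives genes of lipid uptake, storage and export. BHLHE40 and BHLHE41 are closely related repressors that bind E-boxes and are needed together for the identity and self-renewal of alveolar macrophages. PU.1 and the C/EBP factors open the enhancers of the myeloid lineage on which such tissue factors act.

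The starts of these genes differ in composition and in the short motifs they hold. The promoter table made from RefSeq (GRCm38.p6) that was used here holds 8 start sites for 5 of the 7 genes, each as 300 bases from 250 before the start to 50 after it, and promoters of Bhlhe40 and Spi1 were not analysed here. Of the 8, those with at least 1 match to a motif searched for are shown, which leaves out the first Rxra start. Capitals mark a match, on either strand, to 1 of the motifs searched for. These were the E-box of BHLHE40 and BHLHE41, written CACGTG, and the hexamer read by nuclear receptors, written AGGTCA. The PPAR response element, which is 2 such hexamers in a row with any 1 base between them and so overlaps with the hexamer, was searched as well. The motif taken for PU.1 was GAGGAA, that for the TATA box was TATAAA, that for C/EBP factors was TTGCNNAA and that for STAT5 was TTCNNNGAA.
Pparg, first start: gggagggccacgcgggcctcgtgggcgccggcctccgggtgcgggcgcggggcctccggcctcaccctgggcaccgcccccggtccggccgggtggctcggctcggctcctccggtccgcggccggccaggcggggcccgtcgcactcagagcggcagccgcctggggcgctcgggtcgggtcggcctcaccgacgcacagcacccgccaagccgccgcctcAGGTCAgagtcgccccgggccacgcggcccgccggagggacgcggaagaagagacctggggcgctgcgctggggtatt
Pparg, second start: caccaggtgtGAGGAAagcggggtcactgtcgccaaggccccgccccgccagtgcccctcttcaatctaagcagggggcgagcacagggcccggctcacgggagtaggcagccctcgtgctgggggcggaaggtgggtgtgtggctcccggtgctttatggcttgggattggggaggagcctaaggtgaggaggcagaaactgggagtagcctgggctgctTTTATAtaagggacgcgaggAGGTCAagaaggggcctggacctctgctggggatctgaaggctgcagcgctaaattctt
Pparg, last start: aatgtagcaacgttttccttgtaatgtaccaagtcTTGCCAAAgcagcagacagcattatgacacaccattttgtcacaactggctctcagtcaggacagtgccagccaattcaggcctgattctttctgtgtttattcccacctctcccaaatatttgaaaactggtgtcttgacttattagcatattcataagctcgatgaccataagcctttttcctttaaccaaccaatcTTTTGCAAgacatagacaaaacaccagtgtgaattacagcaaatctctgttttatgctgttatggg
Rxra, second start: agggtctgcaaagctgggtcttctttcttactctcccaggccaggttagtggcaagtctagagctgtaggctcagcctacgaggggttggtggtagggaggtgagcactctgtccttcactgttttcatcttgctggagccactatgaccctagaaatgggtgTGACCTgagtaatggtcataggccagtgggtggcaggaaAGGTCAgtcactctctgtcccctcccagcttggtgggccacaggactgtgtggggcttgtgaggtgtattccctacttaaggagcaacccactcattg
Bhlhe41: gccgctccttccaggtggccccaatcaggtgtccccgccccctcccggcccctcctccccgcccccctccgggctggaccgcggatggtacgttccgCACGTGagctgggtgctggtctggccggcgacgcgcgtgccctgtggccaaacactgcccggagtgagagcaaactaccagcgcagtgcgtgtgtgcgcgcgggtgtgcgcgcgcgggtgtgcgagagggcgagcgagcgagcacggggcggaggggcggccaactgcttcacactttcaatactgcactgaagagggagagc
Cebpa: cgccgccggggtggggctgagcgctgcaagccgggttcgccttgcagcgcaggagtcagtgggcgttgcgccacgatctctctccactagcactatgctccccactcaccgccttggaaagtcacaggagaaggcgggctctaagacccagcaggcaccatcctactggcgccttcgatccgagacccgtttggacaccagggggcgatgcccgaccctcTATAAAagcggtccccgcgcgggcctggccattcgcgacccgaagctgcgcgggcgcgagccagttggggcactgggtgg
Cebpb: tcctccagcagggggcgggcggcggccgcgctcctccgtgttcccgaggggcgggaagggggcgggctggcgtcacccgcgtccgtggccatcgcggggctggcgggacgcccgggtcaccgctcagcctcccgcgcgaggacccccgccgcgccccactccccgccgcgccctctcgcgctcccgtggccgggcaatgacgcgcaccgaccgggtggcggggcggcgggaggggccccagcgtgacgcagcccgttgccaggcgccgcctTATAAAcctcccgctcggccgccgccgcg

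Positions of matches are those of the 5′-most base relative to the start, with negative values before it. The first Pparg start (chr6:115360894-115361193, plus strand) has 80.3% G and C and a match to the hexamer AGGTCA at -28. The second (chr6:115362099-115362398, plus strand) has 62.7% G and C, with the hexamer at -9, the TATA box on the reverse strand at -29 and the PU.1 motif at -240. The last (chr6:115421816-115422115, plus strand) is the poorest in G and C at 40.3%, against a median of 52.7% over 32851 promoters, and holds the C/EBP motif at -215 and, on the reverse strand, at -16. The gene-level FPKM does not say which of these starts was read. The second Rxra start (chr2:27709042-27709341, plus strand), with 54.3% G and C, holds the hexamer at -48 and, on the reverse strand, at -87. The Bhlhe41 promoter (chr6:145865371-145865670, minus strand) holds at -153 the E-box that its own protein is known to bind. The TATA box lies at -30 for Cebpa (chr7:35119043-35119342, plus strand) and at 21, after the start, for Cebpb (chr2:167688665-167688964, plus strand). Of all promoters of this length, 16.3% hold the hexamer, 28.3% the PU.1 motif, 13.6% the TATA box, 10.8% the C/EBP motif and 7.15% the E-box, and a match is a description of letters, not of binding. The PPAR response element, present in 0.0396% of promoters, and the STAT5 motif, present in 8.30%, had no match in any of the 8 windows.

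**Figure D1:**
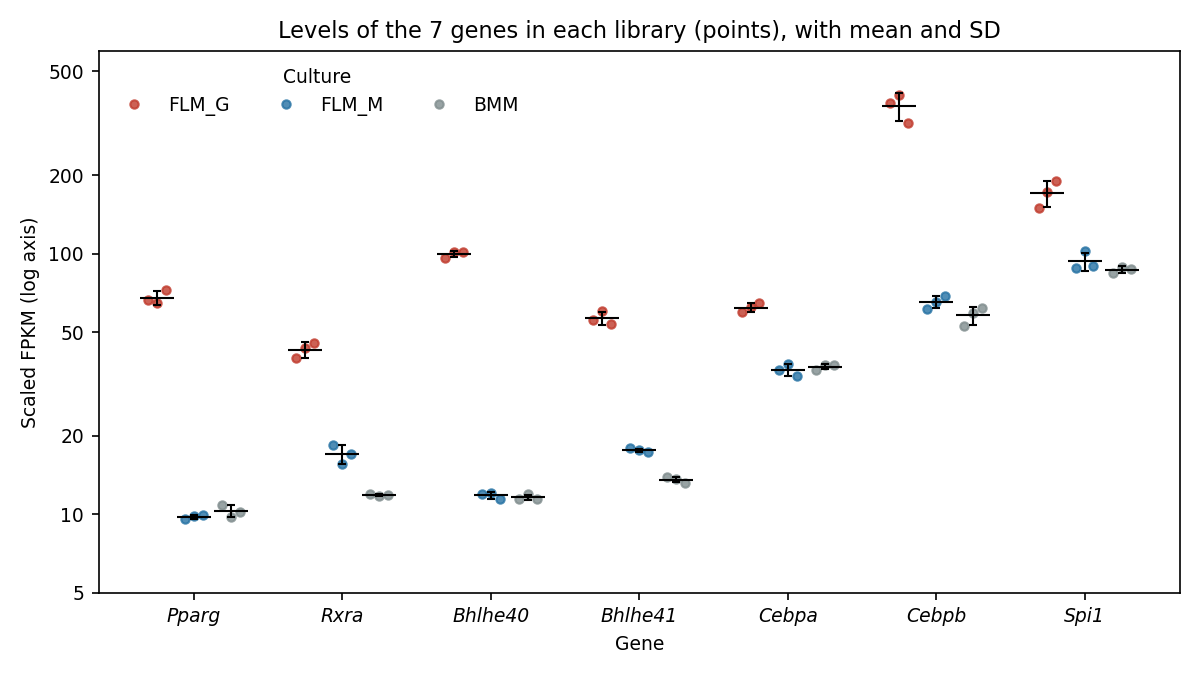
Level of each of the 7 genes as scaled FPKM on a log axis, with a point for each library of FLM_G, FLM_M and BMM and a bar for the mean with its SD. The FLM_G points lie above those of FLM_M and BMM in every gene, and the FLM_M and BMM points are apart only in Rxra and Bhlhe41.

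All 7 genes were higher in FLM_G than in BMM and than in FLM_M, with no overlap between the libraries, as in 36.1% and 36.2% of tested genes. The differences were largest for Bhlhe40, Pparg and Cebpb, at 5.64-fold to 8.58-fold, and smallest for Cebpa and Spi1, at 1.68-fold to 1.96-fold. Limma with Benjamini-Hochberg adjustment over all tested genes called 7 of 7 higher in FLM_G in each comparison, where 33.8% of tested genes were called higher against BMM and 35.5% against FLM_M. Such calls are thus common between these cultures. A called rise of at least 2-fold was rarer, in 9.84% of tested genes against BMM and 11.3% against FLM_M, and Bhlhe40, Pparg, Cebpb, Bhlhe41 and Rxra were among those in both comparisons. FLM_M and BMM differed in 2 of the 7 genes, Rxra and Bhlhe41, both higher in FLM_M, where 44.6% of tested genes were called in either direction, 22.7% were called higher and 28.9% were higher with no overlap. The 2 comparisons of FLM_G share its 3 libraries.

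Pparg (ENSMUSG00000000440, chr6:115360951-115490399, plus strand, in GENCODE M21 on GRCm38) encodes the nuclear receptor itself. It stood at 66.3, 64.6 and 72.7 scaled FPKM in the FLM_G libraries, at 9.60, 9.86 and 9.93 in FLM_M and at 10.8, 9.79 and 10.2 in BMM. The FLM_G libraries are all far above the others, while FLM_M and BMM overlap. FLM_G averaged 67.9 ± 4.30 scaled FPKM against 9.80 ± 0.173 in FLM_M and 10.3 ± 0.533 in BMM (SD, n = 3 each). The rise was 6.60-fold over BMM (limma adjusted p = 1.07e-09, log2 fold change 2.61 with an SE of 0.06) and 6.93-fold over FLM_M (adjusted p = 7.34e-10, log2 fold change 2.67). Between FLM_M and BMM the log2 difference was -0.06 with an SE of 0.06 (limma adjusted p = 0.415). In each culture Pparg was a gene of middle to high level, at the 92.6 percentile of tested genes in FLM_G, the 60.3 percentile in FLM_M and the 61.7 percentile in BMM.

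Rxra (ENSMUSG00000015846, chr2:27676440-27762957, plus strand) encodes the retinoid X receptor with which PPARG pairs on DNA. It stood at 39.7, 43.5 and 45.3 scaled FPKM in FLM_G, at 18.4, 15.5 and 17.1 in FLM_M and at 12.0, 11.8 and 11.9 in BMM. The 3 cultures form 3 separate levels, with FLM_G highest and BMM lowest. The FLM_G mean was 3.61-fold that of BMM (limma adjusted p = 4.60e-08, log2 fold change 1.76 with an SE of 0.07) and 2.52-fold that of FLM_M (adjusted p = 3.52e-07, log2 fold change 1.28). Rxra was also 1.43-fold higher in FLM_M than in BMM (limma adjusted p = 0.000618, log2 fold change 0.48 with an SE of 0.07). The deposited counts may hold reads of the opposite strand, since 36.1% of them lay in genes under 0.5 FPKM and the antisense gene 0610040F04Rik had 39 to 179 of them a library against 4 to 54 for Bhlhe40. The labels do not name the strand counted, so every fold and lost call from the counts may reflect other transcripts than the gene named. In these counts, where Rxra had only 5 to 33 reads a library, the FLM_G against FLM_M difference was no longer called, at a log2 fold change of 0.46 (edgeR adjusted p = 0.268) or 0.48 (DESeq2 adjusted p = 0.520). The FLM_M against BMM call was kept by edgeR (log2 fold change 1.12, adjusted p = 0.0288) and not by DESeq2 (1.06, adjusted p = 0.211).

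Because FPKM is per length, the receptor can be set against its partner within a library. The ratio of Pparg to Rxra was 1.59 ± 0.094 in FLM_G, 0.579 ± 0.057 in FLM_M and 0.866 ± 0.036 in BMM (SD, n = 3 each). Pparg exceeded Rxra in the 3 FLM_G libraries and was below it in the 6 others. The log2 ratio, here taken on scaled FPKM + 1, differed by 0.84 between FLM_G and BMM and by 1.39 between FLM_G and FLM_M, several times the pooled SD within groups of 0.07 and 0.11. A two-sided exact permutation test gave p = 0.1, also after Benjamini-Hochberg adjustment over the 9 ratio comparisons made, which is the smallest value that 3 libraries against 3 allow.

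Bhlhe40 (ENSMUSG00000030103, chr6:108660629-108666925, plus strand), an E-box repressor, showed the largest change of the 7 genes. It stood at 96.4, 101.6 and 101.4 scaled FPKM in FLM_G, at 12.0, 12.1 and 11.4 in FLM_M and at 11.5, 12.0 and 11.5 in BMM. FLM_G is set apart, and FLM_M and BMM overlap. The FLM_G mean was 8.58-fold that of BMM (limma adjusted p = 9.41e-11, log2 fold change 3.00 with an SE of 0.04) and 8.44-fold that of FLM_M (adjusted p = 7.82e-11, log2 fold change 2.97). Of all tested genes, 1.51% changed by as much or more upward against BMM and 1.80% against FLM_M. The annotated antisense gene 0610040F04Rik overlaps Bhlhe40 on the other strand and was listed at 0 FPKM in 8 of 9 libraries, and where reads are counted without strand such a pair cannot be told apart.

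Its relative Bhlhe41 (ENSMUSG00000030256, chr6:145858243-145865558, minus strand) stood at 55.4, 60.3 and 53.7 scaled FPKM in FLM_G, at 17.9, 17.6 and 17.4 in FLM_M and at 13.9, 13.7 and 13.2 in BMM. The 3 cultures do not overlap, in the same order as for Rxra. The FLM_G mean was 4.16-fold that of BMM (limma adjusted p = 2.83e-09, log2 fold change 1.98 with an SE of 0.05) and 3.21-fold that of FLM_M (adjusted p = 8.55e-09, log2 fold change 1.62). FLM_M exceeded BMM by 1.30-fold (limma adjusted p = 0.000609, log2 fold change 0.35 with an SE of 0.05), a call that the deposited counts did not give (log2 fold change 0.78, edgeR adjusted p = 0.0558, and 0.70, DESeq2 adjusted p = 0.182).

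By FPKM, the balance of the related repressors turned over between cultures. The ratio of Bhlhe41 to Bhlhe40 within a library was 0.566 ± 0.033 in FLM_G, against 1.49 ± 0.032 in FLM_M and 1.17 ± 0.035 in BMM (SD, n = 3 each). By this measure Bhlhe40 was the more abundant of the pair in every FLM_G library, and Bhlhe41 in every library of the other cultures. The deposited counts, which are not per length and may hold reads of the opposite strand, did not show this order in FLM_G. There Bhlhe41 had 101, 104 and 49 counts against 44, 54 and 20 for Bhlhe40. The log2 ratio, taken on scaled FPKM + 1, differed by -1.02 between FLM_G and BMM, by -1.35 between FLM_G and FLM_M and by 0.33 between FLM_M and BMM (exact permutation p = 0.1 each, the smallest possible).

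**Figure D2:**
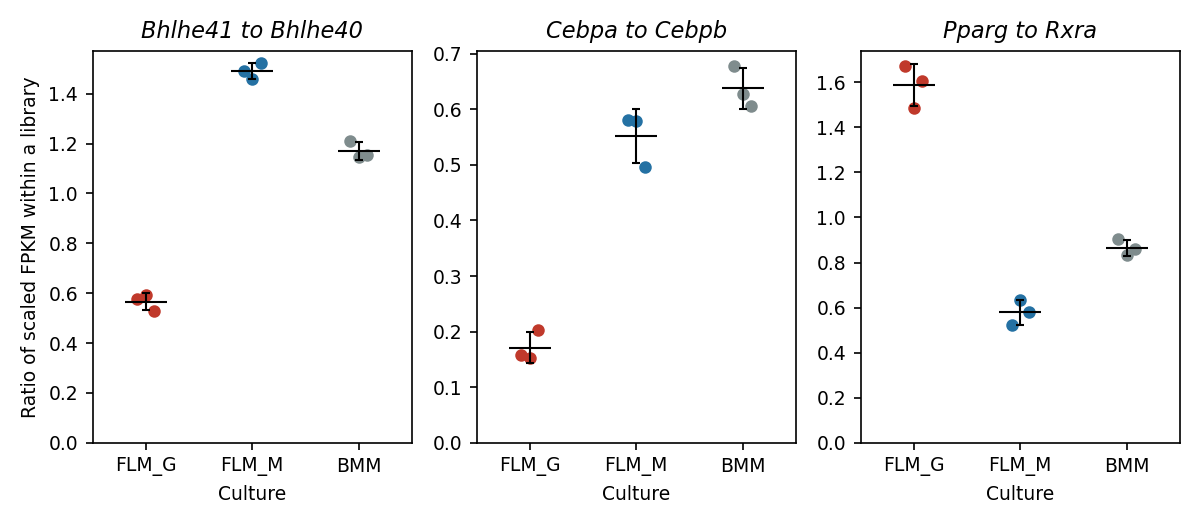
Ratio of scaled FPKM between 2 of the genes within each library of FLM_G, FLM_M and BMM (points), with mean and SD, for Bhlhe41 to Bhlhe40, Cebpa to Cebpb and Pparg to Rxra. The first 2 ratios are lowest in FLM_G, at 0.566 and 0.171, and the last is highest there, at 1.59.

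Cebpb (ENSMUSG00000056501, chr2:167688915-167690418, plus strand), a C/EBP factor that is induced by cytokines, was the most abundant of the 7 genes in FLM_G. It stood at 378.2, 406.8 and 316.9 scaled FPKM there, at 61.5, 65.4 and 68.5 in FLM_M and at 52.9, 59.4 and 61.9 in BMM. FLM_G replicate 3 is below the other 2 FLM_G libraries and still far above FLM_M and BMM, which overlap. The FLM_G mean was 6.33-fold that of BMM (limma adjusted p = 2.84e-08, log2 fold change 2.64 with an SE of 0.10) and 5.64-fold that of FLM_M (adjusted p = 3.95e-08, log2 fold change 2.47). In FLM_G it lay at the 98.7 percentile of tested genes. The gene Tmem189 overlaps Cebpb on the other strand, at 74.0 to 80.8 scaled FPKM in FLM_G, 55.3 to 62.8 in FLM_M and 38.1 to 45.0 in BMM, and its part in the level of Cebpb was not tested.

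Cebpa (ENSMUSG00000034957, chr7:35119293-35121928, plus strand), the C/EBP factor that commits progenitors to the myeloid lineage, changed the least. It stood at 59.5, 62.5 and 64.4 scaled FPKM in FLM_G, at 35.7, 37.9 and 34.1 in FLM_M and at 35.9, 37.3 and 37.5 in BMM. FLM_G is higher in each library, and FLM_M and BMM overlap. The FLM_G mean was 1.68-fold that of BMM (limma adjusted p = 2.43e-06, log2 fold change 0.74 with an SE of 0.05) and 1.73-fold that of FLM_M (adjusted p = 1.47e-06, log2 fold change 0.78). The counts did not call the first of these (log2 fold change 0.54, edgeR adjusted p = 0.106, and 0.50, DESeq2 adjusted p = 0.248). The ratio of Cebpa to Cebpb was 0.171 ± 0.028 in FLM_G, against 0.552 ± 0.048 in FLM_M and 0.638 ± 0.037 in BMM (SD, n = 3 each). The log2 ratio, taken on scaled FPKM + 1, differed by -1.90 from BMM and -1.70 from FLM_M (exact permutation p = 0.1 each).

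Spi1 (ENSMUSG00000002111, chr2:91082390-91115756, plus strand) encodes PU.1, the ETS factor required for all macrophages. It stood at 150.1, 171.6 and 189.6 scaled FPKM in FLM_G, at 88.2, 102.1 and 90.0 in FLM_M and at 84.1, 89.2 and 87.2 in BMM. The FLM_G libraries are higher and more widely spread, and FLM_M and BMM overlap. The FLM_G mean was 1.96-fold that of BMM (limma adjusted p = 1.54e-05, log2 fold change 0.96 with an SE of 0.09) and 1.82-fold that of FLM_M (adjusted p = 2.91e-05, log2 fold change 0.86). Spi1 was among the most abundant tested genes in all cultures, at the 97.2 percentile in FLM_G, the 95.8 percentile in FLM_M and the 95.3 percentile in BMM.

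The order of the 7 levels differed between cultures. In FLM_G it ran Cebpb, Spi1, Bhlhe40, Pparg, Cebpa, Bhlhe41 and Rxra from high to low, and neighbouring libraries overlapped only between Cebpa and Bhlhe41. In FLM_M it ran Spi1, Cebpb, Cebpa, Bhlhe41, Rxra, Bhlhe40 and Pparg, with overlap between Bhlhe41 and Rxra. In BMM the order was the same as in FLM_M, with overlap between Rxra and Bhlhe40. Pparg, the lowest of the 7 in FLM_M and BMM, was thus 4th of 7 in FLM_G.

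**Figure D3:**
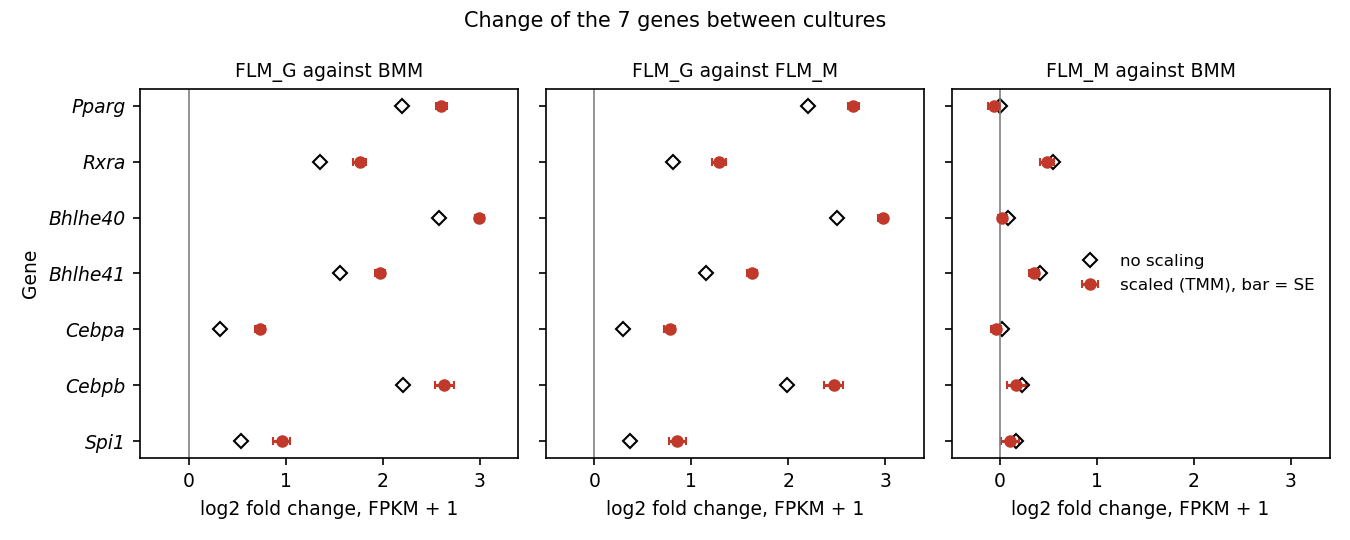
Log2 fold change of each of the 7 genes on log2(FPKM + 1), for FLM_G against BMM, FLM_G against FLM_M and FLM_M against BMM. Filled points are scaled values with their SE and open diamonds are values without scaling, which are lower in both FLM_G comparisons and stay above 0 there.

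The libraries held different shares of their FPKM in a few genes, and this bears on the size of every change. The 10 most abundant genes took 30.9% to 33.0% of all FPKM in FLM_G, 15.7% to 17.6% in FLM_M and 18.5% to 20.8% in BMM, and scaling by trimmed means (TMM) adjusts for this. Without scaling the median tested gene lay at -0.34 on the log2 scale in FLM_G against BMM and at -0.39 in FLM_G against FLM_M, and calls were 2081 higher and 6775 lower in the first (4044 and 4081 with scaling) and 2218 and 7075 in the second (4246 and 4195 with scaling). All 7 genes were still called higher in FLM_G, with log2 fold changes of 2.20 for Pparg in both comparisons, 0.32 and 0.30 for Cebpa, and 0.54 and 0.37 for Spi1, against BMM and against FLM_M in that order. Among markers of macrophages, alveolar macrophages and other cell types, the summed alveolar markers ranged from 5876 to 6221 scaled FPKM in FLM_G, from 40.0 to 44.5 in FLM_M and from 13.2 to 14.4 in BMM. Of these 12 alveolar markers 10 were tested, 7 of them only through FLM_G. In FLM_M 9 of the 12 averaged under 1 scaled FPKM, and in BMM 9 did, so the sums there rest on few genes. Siglecf, a surface marker of alveolar macrophages that eosinophils carry too, stood at 30.2, 0.140 and 0.168 scaled FPKM in FLM_G, FLM_M and BMM, and the macrophage marker C1qa at 0.267, 2016 and 859. Of the 8 macrophage markers, 2 rose and 5 fell in FLM_G against BMM, where 33.8% of all tested genes rose and 34.1% fell. Against FLM_M 2 rose and 6 fell, where 35.5% rose and 35.1% fell. Mertk, a receptor for the uptake of dying cells, and Lyz2 were the markers that rose, Mertk at 64.0, 10.5 and 9.11 scaled FPKM. Csf1r, the M-CSF receptor, averaged 118.8, 432.6 and 368.0 scaled FPKM in that order, and all 8 macrophage markers but C1qa were above 1 scaled FPKM in every culture. The counts did not call the fall of Csf1r, at a log2 fold change of -0.26 against BMM (edgeR adjusted p = 0.485) and -0.60 against FLM_M (edgeR adjusted p = 0.0605). All 7 lymphocyte markers were at 0 in FLM_G and FLM_M and at 0.00876 or less in BMM, the summed fibroblast, dendritic cell, and eosinophil and mast cell markers stayed under 0.38 in every library, and of the adipocyte markers Adipoq, Lep and Cfd were at 0 throughout while Plin1 had 0.729 in FLM_G. The neutrophil list summed to 49.7 to 56.7 scaled FPKM in FLM_G, 9.51 to 12.3 in FLM_M and 1.84 to 2.19 in BMM, nearly all of it S100a8, with Ly6g, Camp and Retnlg at 0. Erythroid markers summed to 4.21 to 6.00, 2.27 to 2.73 and 0 to 0.0750 in the same order, nearly all of it Epor, and of the 5 hepatocyte markers 4, Alb and Ttr among them, were at 0 throughout. The other, Afp, ranged from 0.790 to 1.13 in FLM_G, from 1.94 to 2.57 in FLM_M and from 1.59 to 1.92 in BMM, and it fell in FLM_G (log2 fold change -0.55 against BMM and -0.74 against FLM_M). DESeq2 on the counts called neither, at 2.07 against BMM (adjusted p = 0.514) and -0.56 against FLM_M (adjusted p = 0.849). The part of cells expressing S100a8, Epor or Afp in the 7 genes' levels was not tested. Xist, expressed in female cells, averaged 48.5 ± 6.75 in FLM_G, 70.9 ± 3.59 in FLM_M and 0.00201 ± 0.00225 in BMM, and the Y-linked Ddx3y 0.00550 ± 0.00953, 0 and 9.20 ± 1.09 (SD, n = 3 each), so sex cannot be told apart from culture in comparisons with BMM.

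Around Pparg, the signals and factors known to act on its expression moved in part. Of the 16 genes listed, 14 were tested without relying on FLM_G alone. In FLM_G 6 of the 14 rose and 4 fell against BMM, and 10 rose and 2 fell against FLM_M, with a median log2 fold change of 0.15 and 0.39. Of all tested genes, 33.8% rose and 34.1% fell against BMM, and 35.5% rose and 35.1% fell against FLM_M. The median of all tested genes was 0.00 in both. Csf2rb, the signalling chain of the GM-CSF receptor, averaged 200.8 ± 12.5 scaled FPKM in FLM_G, 26.6 ± 4.05 in FLM_M and 23.1 ± 0.352 in BMM (limma adjusted p = 1.04e-08 against BMM and 1.38e-08 against FLM_M). Csf2ra, its ligand-binding chain, averaged 407.7 ± 41.3, 66.2 ± 4.59 and 129.4 ± 13.6, and Tgfbr2, a TGF-β receptor, 98.6 ± 3.42, 30.3 ± 3.32 and 20.5 ± 1.65 in the same order. All 3 rose in FLM_G. Egr2, a zinc finger factor of alveolar macrophages, stood at 69.9 ± 12.6 in FLM_G, 0.763 ± 0.056 in FLM_M and 0.766 ± 0.063 in BMM (SD, n = 3 each), and it entered the test only through FLM_G. Without scaling the whole list counted 5 higher and 7 lower against BMM and 5 and 5 against FLM_M.

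Of the other PPAR and RXR genes, Ppard, a receptor with the same partner, averaged 13.9 ± 0.822 scaled FPKM in FLM_G, 1.81 ± 0.193 in FLM_M and 4.72 ± 0.310 in BMM (SD, n = 3 each), and it rose in FLM_G against both (limma adjusted p = 3.46e-07 and 7.16e-09 against BMM and FLM_M). Rxrb averaged 9.23 ± 0.943, 7.71 ± 0.347 and 7.54 ± 0.251. Its call at a log2 fold change of 0.26 and 0.23 turned to -0.12 and -0.21 without scaling. Ppara and Rxrg were listed at 0 in every library.

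Among receptors that share RXR as a partner, Nr1h3 (LXRα, a sensor of oxysterols and itself a PPARG target) averaged 25.0 ± 3.31 scaled FPKM in FLM_G, 0.124 ± 0.039 in FLM_M and 4.24 ± 0.110 in BMM (SD, n = 3 each). Rara, a retinoic acid receptor, averaged 19.8 ± 2.42, 4.35 ± 0.807 and 4.4 ± 0.518 in the same order, and both rose in FLM_G. Of the 6 partner receptors tested without relying on FLM_G alone, 3 rose and 2 fell against BMM, and 5 rose and 0 fell against FLM_M (median log2 fold change 0.27 and 1.13). Beside these stand the 33.8% of all tested genes that rose and 34.1% that fell against BMM, and the 35.5% and 35.1% against FLM_M. Without scaling the 7 tested partner receptors, 1 of them tested through FLM_G alone, counted 3 higher and 3 lower against BMM. Against FLM_M they counted 6 higher and 1 lower. The coactivators and corepressors of these receptors were mixed, with 2 of 11 higher and 5 lower in FLM_G against BMM and 3 higher and 5 lower against FLM_M (median log2 fold change -0.17 and -0.13), the same shares of all tested genes being the background. Without scaling these were 1 higher and 8 lower, and 2 higher and 7 lower. Ncoa3, a coactivator, averaged 3.63 ± 2.28 scaled FPKM in FLM_G, 13.2 ± 1.55 in FLM_M and 18.5 ± 0.415 in BMM, and Ncoa1, another, 6.99 ± 0.385, 3.48 ± 0.452 and 4.62 ± 0.114 (SD, n = 3 each). Ncoa3 was lower in FLM_G and Ncoa1 higher, and neither was called in the counts in either comparison.

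Of 25 genes listed as PPARG targets, mostly of fatty acid uptake, storage and oxidation, 20 were tested and none of these entered through FLM_G alone. In FLM_G 14 rose and 3 fell against BMM, where 33.8% of tested genes rose and 34.1% fell (median log2 fold change 1.01), and 14 rose and 2 fell against FLM_M, where 35.5% rose and 35.1% fell (0.65). Without scaling 11 rose and 6 fell against BMM, and 10 rose and 6 fell against FLM_M. Abcg1, which exports cholesterol, averaged 126.0 ± 7.97 scaled FPKM in FLM_G, 3.62 ± 0.332 in FLM_M and 4.35 ± 0.188 in BMM (limma adjusted p = 1.10e-10 against BMM and 7.10e-11 against FLM_M). Fabp4 and Fabp5 are carriers of fatty acids in the cytosol. Fabp4 averaged 71.8 ± 5.15 in FLM_G, 7.24 ± 0.703 in FLM_M and 1.10 ± 0.078 in BMM, and Fabp5 614.3 ± 17.2, 132.3 ± 11.9 and 29.0 ± 0.802 in the same order. Both were graded over the 3 cultures, while the FLM_M and BMM libraries overlapped in Pparg.

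Some listed targets went against Pparg or did not pass the test. Cd36, a scavenger receptor that takes up fatty acids, averaged 136.6 ± 32.1 scaled FPKM in FLM_G, 142.6 ± 4.59 in FLM_M and 194.6 ± 9.50 in BMM (SD, n = 3 each). It fell against BMM (log2 fold change -0.54, limma adjusted p = 0.0125), a call not given by the counts, and was not called against FLM_M (adjusted p = 0.614). Plin2, which coats lipid droplets, averaged 152.3 ± 9.21, 138.4 ± 3.30 and 140.1 ± 1.45, in the same order and was not called against BMM (limma adjusted p = 0.0687). Against FLM_M it was called at a log2 fold change of 0.14 (adjusted p = 0.0395), which turned to -0.35 without scaling, and the call was lost in the counts and under several other settings. Slc27a1, a fatty acid transporter chosen after its values were seen, averaged 21.0 ± 2.48 in FLM_G, 117.5 ± 4.55 in FLM_M and 107.9 ± 5.17 in BMM, and it fell against both. Pdk4 was listed at 0 throughout.

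**Figure D4:**
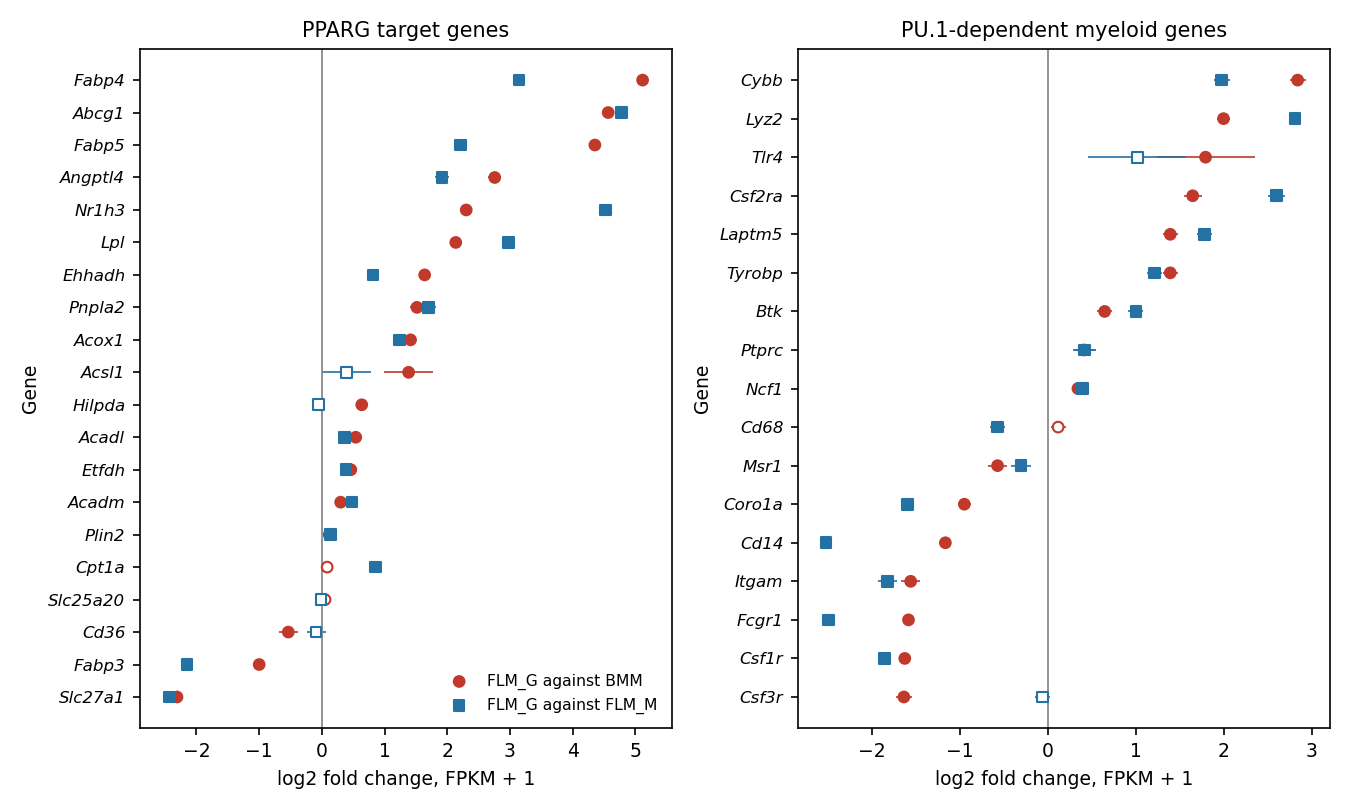
Log2 fold change on scaled log2(FPKM + 1), with its SE, of the 20 tested PPARG targets (left) and the 17 PU.1-dependent genes (right) in FLM_G against BMM (circles) and FLM_G against FLM_M (squares). Filled symbols passed an adjusted p of 0.05 in limma, and both lists hold genes on either side of 0.

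Genes that depend on PU.1 in myeloid cells did not move one way. Of 17 listed, all tested, 9 rose and 7 fell in FLM_G against BMM, and 8 rose and 7 fell against FLM_M (median log2 fold change 0.34 and 0.40), where 33.8% of all tested genes rose and 34.1% fell against BMM, and 35.5% rose and 35.1% fell against FLM_M. Cybb, the catalytic subunit of the phagocyte oxidase, averaged 337.2 ± 28.0 scaled FPKM in FLM_G, 85.1 ± 9.88 in FLM_M and 46.1 ± 0.559 in BMM. Lyz2, lysozyme, averaged 25600 ± 186, 3652 ± 73 and 6408 ± 194 in the same order (SD, n = 3 each). Both rose, while Cd14, the co-receptor for lipopolysaccharide, fell, at 34.4 ± 0.344 in FLM_G, 202 ± 9.53 in FLM_M and 78.2 ± 1.17 in BMM (limma adjusted p = 3.26e-08 against BMM and 1.98e-10 against FLM_M). DESeq2 on the counts did not call the fall of Cd14 against BMM (log2 fold change -1.18, adjusted p = 0.0713). Of 9 tested ETS factors and partners of PU.1, 1 rose and 6 fell against BMM, and 2 rose and 5 fell against FLM_M (median log2 fold change -0.49 and -0.22), against the same background, and without scaling 0 rose and 6 fell against FLM_M. Ets2, an ETS factor downstream of growth factor signalling, averaged 6.94 ± 0.398 in FLM_G, 43.2 ± 3.33 in FLM_M and 19.9 ± 1.08 in BMM. Runx1, which works with PU.1 in haematopoiesis, averaged 9.86 ± 0.060, 6.99 ± 0.369 and 4.82 ± 0.185, and its log2 fold change against FLM_M was 0.44 with scaling and 0.01 without.

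The other C/EBP genes did not follow Cebpb. Cebpd averaged 25.5 ± 4.17 scaled FPKM in FLM_G, 30.4 ± 1.27 in FLM_M and 20.4 ± 0.635 in BMM, and Cebpg 13.2 ± 0.669, 13.3 ± 0.337 and 9.77 ± 0.366 (SD, n = 3 each). Their calls against BMM, at log2 fold changes of 0.30 and 0.39, were lost without scaling, at -0.11 and 0.00, and in the counts. The Cebpd call was also lost under several other settings. Among these were upper-quartile scaling (limma adjusted p = 0.0717), no filter and each BMM replicate left out in turn. Ddit3, a C/EBP relative induced by stress, averaged 9.65 ± 1.21 in FLM_G, 18.2 ± 2.12 in FLM_M and 8.37 ± 0.528 in BMM and fell against FLM_M (limma adjusted p = 9.34e-05). Of 8 myeloid genes that depend on C/EBP factors, leaving out Chil3, which entered only through FLM_G, 3 rose and 4 fell against BMM, and 2 rose and 5 fell against FLM_M (median log2 fold change -0.54 and -0.30), where 33.8% and 34.1% of all tested genes did so against BMM and 35.5% and 35.1% against FLM_M. Chil3, a chitinase-like secreted protein, stood at 1725 ± 62 scaled FPKM in FLM_G, 0 in FLM_M and 0.499 ± 0.152 in BMM. Saa3, an acute-phase gene, went the other way at 2.49 ± 0.448, 44.0 ± 4.99 and 13.4 ± 0.943 in the same order.

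BHLHE40 and BHLHE41 also repress the circadian clock. Of 13 clock genes tested without relying on FLM_G alone, 5 rose and 4 fell in FLM_G against BMM, and 3 rose and 1 fell against FLM_M (median log2 fold change -0.06 and 0.06). Of all tested genes 33.8% rose and 34.1% fell against BMM and 35.5% and 35.1% did so against FLM_M, so the counts against BMM lie near the background and those against FLM_M below it. Without scaling, the list with Npas2, which entered through FLM_G alone, counted 4 higher and 8 lower against BMM and 2 higher and 8 lower against FLM_M. Cry1, a repressor of the clock, averaged 8.47 ± 1.5 scaled FPKM in FLM_G, 3.57 ± 0.10 in FLM_M and 2.57 ± 0.115 in BMM (limma adjusted p = 3.10e-06 against BMM and 2.04e-05 against FLM_M), and DESeq2 on the counts did not call it (adjusted p = 0.616 and 0.612). Among other E-box binders and ID proteins, 9 of 16 rose and 7 fell against BMM, and 9 rose and 4 fell against FLM_M (median log2 fold change 0.52 and 0.53), against the same background. Tfec, a macrophage factor of the MiT family, averaged 11.0 ± 0.711 in FLM_G, 2.24 ± 0.402 in FLM_M and 1.40 ± 0.130 in BMM. Its relative Tfeb, a factor of lysosome genes, averaged 13.3 ± 0.649, 2.47 ± 0.171 and 3.77 ± 0.831 (SD, n = 3 each), and both rose against both cultures. Id2, an inhibitor of E proteins, averaged 668.7 ± 36.3, 407.6 ± 29.0 and 231.6 ± 4.92 and rose as well.

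Maf, a large MAF factor that restrains self-renewal of macrophages and is known to be low in alveolar macrophages, moved opposite to the 7 genes. It averaged 0.238 ± 0.051 scaled FPKM in FLM_G, 46.3 ± 4.84 in FLM_M and 56.2 ± 2.44 in BMM (SD, n = 3 each). Maf fell in FLM_G against BMM (log2 fold change -5.53, limma adjusted p = 8.13e-11) and against FLM_M (-5.25). Of 5 tested factors of other resident macrophages, 3 rose and 2 fell against BMM, where 33.8% of all tested genes rose and 34.1% fell. Against FLM_M 4 rose and 0 fell, where 35.5% rose and 35.1% fell. Without scaling these counts were 2 higher and 2 lower against BMM, and 2 higher and 1 lower against FLM_M. Klf4, a zinc finger factor, averaged 60.8 ± 3.01 in FLM_G, 4.55 ± 0.382 in FLM_M and 6.18 ± 0.460 in BMM and rose against both. Klf2, its relative, averaged 17.2 ± 1.31 in FLM_G, 13.6 ± 1.03 in FLM_M and 24.8 ± 0.736 in BMM and fell against BMM (log2 fold change -0.50), while its call against FLM_M, at 0.33, turned to -0.13 without scaling. Zeb2, another zinc finger factor, fell against BMM (log2 fold change -0.45, limma adjusted p = 0.0180), a call lost in the counts and without FLM_G replicate 2 or 3 or BMM replicate 2 (adjusted p = 0.0732, 0.0682 and 0.0612). Sall1, a factor of microglia, was listed at 0 throughout, and Gata6, a factor of peritoneal macrophages, at 0.101 in FLM_G and 0 in the others.

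The genes most like 3 of the factors over the 9 libraries were picked by the smallest root mean square difference in log2(FPKM + 1), centred on each gene's mean, among 3400 genes with a mean of at least 20 scaled FPKM in the highest group. For Pparg the closest was Sat1, an enzyme of polyamine breakdown, at a difference of 0.08 and levels of 207.5 ± 2.25 scaled FPKM in FLM_G, 31.9 ± 2.94 in FLM_M and 31.9 ± 0.420 in BMM (SD, n = 3 each). Net1, Mmp19, Msrb1 and Dusp5 followed at 0.09 to 0.11. For Bhlhe41 the closest was Rnf166, at 0.07 and levels of 48.6 ± 1.93, 14.8 ± 0.723 and 11.5 ± 0.303, and then Ptpn12, Lsp1, Dram1 and Spns1. Among the closest to Cebpa were Slc39a1, Tmem160, Dusp1 and Myd88, at 0.04 to 0.05. The labels do not say whether the wells of a kind had separate sources, so these likenesses may rest on no more than 3 cultures.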

How the data were processed

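RNA of 9 libraries, 3 each of FLM_G, FLM_M and BMM, was read for 101 cycles from 1 end after a stranded mRNA preparation, per the labels' protocols. The submitters' processing notes name HISAT2, StringTie, DESeq2, cutadapt, FastQC and bcl2fastq, with GRCm38 (mm10) as the build; roles and versions are not given in the sources used here. The authors deposited 2 tables of 46078 genes, 1 of whole-number read counts per gene without normalization and 1 of FPKM. The deposited counts sum to 782400 to 1170813 per library, while the steps of the deposited FPKM, at about 28.6 to 35.7 reads per FPKM and kilobase, put the libraries at 28570000 to 35680000 reads (21.9% to 26.2% of low values were no more than 2% of a read off a whole step). In these counts, genes with little FPKM can carry reads of an opposite-strand neighbour, and 36.1% of counts lay in genes under 0.5 FPKM, so the FPKM were the measure and the counts an alternative.

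FPKM were scaled by TMM factors (edgeR 4.0.16; 0.801 to 1.142). The 11952 genes that reached 1 FPKM in 3 or more libraries entered limma 3.58.1 in R 4.3.3 as log2(FPKM + 1), with 1 mean per group over all 9 libraries (6 residual degrees of freedom) and Benjamini-Hochberg adjustment over all of them; a call is an adjusted p under 0.05. On this scale fold changes of low genes are understated; folds of means are of scaled FPKM. Values of 0 can be failed estimates. Alternatives were RLE, upper-quartile and no scaling, no filter and a filter at 5 FPKM, a fit of the 6 compared libraries alone, a replicate block, a pseudocount of 0.1, each library left out, and edgeR and DESeq2 1.42.0 on the counts. On simulated data with 200 changed genes, the limma step recovered 91% of genes changed 2-fold in FLM_G against BMM (11164 genes), 86.6% in FLM_G against FLM_M (11156 genes) and 94% in FLM_M against BMM (11173 genes), with 8, 12 and 9 false calls. The changed genes had at least 5 scaled FPKM in the reference group, and all others kept their level in every group. Far more genes were called between the real cultures, so these figures do not measure the errors there.

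The 7 genes, the gene lists and the tests were chosen with earlier results of these data known. Beyond the 7 genes, up to 4 called genes a list were named, those of the largest change in FLM_G with at least 5 scaled FPKM in the higher group, with uncalled genes of at least 50, and any gene of the MAF, PPAR and RXR, C/EBP and marker lists. Genes named as listed at 0 were chosen after their values were seen. Several genes stand in more than 1 list, Lyz2, Csf2ra, Nr1h3, Chil3, Csf3r and Id3 among them, so the list counts are not independent. Csf1r, Itgam, Fcgr1, Cd68 and Lyz2 are counted both as macrophage markers and as PU.1-dependent genes. Some genes that the rules would name are not reported here, and the lists are counted without them.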

Additional observations from a re-analysis of the deposited data

Results flagged for a closer look

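A signal appeared in the counts, which the comparisons do not use, for 2 genes that lie on the strand opposite to Bhlhe40 and Cebpb. The antisense gene 0610040F04Rik, opposite to Bhlhe40, had a mean of 164.3 ± 21.2 counts in FLM_G, 49.3 ± 5.86 in FLM_M and 42.7 ± 5.51 in BMM (SD, n = 3 each), although its scaled FPKM was 0 in 8 of 9 libraries and 0.0157 in the other. Bhlhe40 itself had 20 to 54 counts in FLM_G, 10 to 15 in FLM_M and 4 to 8 in BMM. Tmem189, opposite to Cebpb, had 4942 ± 662 counts in FLM_G, 1505 ± 150 in FLM_M and 1126 ± 184 in BMM, with 74.0 to 80.8 scaled FPKM in FLM_G, 55.3 to 62.8 in FLM_M and 38.1 to 45.0 in BMM. Relative to each library's total, the counts of 0610040F04Rik were 4.23 times as high in FLM_G as in BMM and 4.44 times as high as in FLM_M, and those of Tmem189 4.82 and 4.33 times. The labels do not say which strand was counted.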

How the results depend on the processing

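In FLM_G against BMM and against FLM_M the 7 genes kept their direction and call under all 17 FPKM settings run for each comparison, 9 of which leave out a library each (7 called each time, of 7239 to 8063 and 7606 to 8242 genes). In FLM_M against BMM 2 genes were called each time, of 4192 to 5509, and the uncalled Cebpa changed sign without scaling (0.022 on the log2 scale) and without FLM_M replicate 3 (range -0.070 to 0.0050 over the libraries left out). The counts called fewer genes, with 7490 tested by edgeR and 18214 by DESeq2 against 11952 by limma. Calls were 2458 by edgeR and 2210 by DESeq2 in FLM_G against BMM, 2855 and 2638 in FLM_G against FLM_M, and 1300 and 844 in FLM_M against BMM. In FLM_M against BMM 1 of the 7 genes was called by edgeR and 0 by DESeq2, and Pparg stood at 0.90 and 0.85. The cause was not tested. Correlations of deviations were near 0 for libraries of the same replicate number (-0.08 to 0.09) and for others (-0.10 to 0.07), which does not exclude a pairing. With the replicate block 8018, 8386 and 5140 genes were called and no call of the 7 genes changed. The 7 genes have 1 to 408 counts a library, which limits what the counts can call.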
